A study of Mus musculus with 75 samples.

Results

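The genes described here are 32 genes known from reactive astrocytes, followed in enteric glial cells (EGC in the labels), the glia of the gut wall. The members were found by symbol in the count tables. All 32 had a row in both tables, of 21051 rows in the table of the untreated and 2 h libraries and of 21076 rows in the table of the 24 h libraries. By their published use they fall into 10 pan-reactive genes, 7 genes of the A1 panel, 12 genes of the A2 panel and 3 other astrocyte genes. After a filter on low counts, 31 members were tested in the untreated libraries (all but Ptx3), 31 at 2 h (all but Aspg) and all 32 at 24 h.

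Astrocytes that meet injury or inflammation change their filaments, their secreted matrix and their antigen-processing genes, a state called reactive. In the mouse brain the A1 panel was defined in astrocytes after lipopolysaccharide (LPS) and the A2 panel after ischaemia, with a pan-reactive group common to both. Enteric glia share with astrocytes the filament protein Gfap and the calcium-binding protein S100b, and respond to bacterial products and cytokines. The series asks what the receptor Gpr37 does in enteric glia during inflammation.

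All mice, controls included, carried a green fluorescent reporter transgene. The labels do not describe how the cells were separated. Untreated adult mice gave the myenteric plexus (MP), the nerve network between the muscle layers, and the submucosal plexus (SMP). There were 6 small-intestinal MP, 6 small-intestinal SMP, 5 colonic MP and 5 colonic SMP libraries. At 2 h, reporter mice had received phosphate-buffered saline (PBS) or LPS, and the MP of each region gave 4 libraries per group. At 24 h, reporter mice labelled Gpr37WT (here wild type) or Gpr37-/- (here knockout) had received PBS or LPS, and only MP was taken. Wild-type small intestine had 6 libraries under PBS and 4 under LPS, and wild-type colon had 4 and 5. Knockout small intestine had 4 under PBS and 5 under LPS, and knockout colon had 5 and 4. LPS, a cell-wall component of Escherichia coli, was given once at 2 mg/kg into the peritoneal cavity. At 24 h several mice gave both regions. The other labels do not say that libraries came from separate mice, so the p-values there measure only the spread between these libraries.

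Libraries held 1990744 to 33283346 counts. Counts of Gpr37 were 0 to 9 in the knockout libraries and 33 to 158 in the wild-type PBS libraries. Under LPS, wild-type libraries had 20 to 124 counts, except 0 to 2 in the libraries labelled mouse 3 in both regions and in the colonic libraries labelled mouse 5 and mouse 8. These 4 libraries lie in the knockout range, so their counts do not bear out the genotype label. A low count does not by itself mark a knockout. The small-intestinal library of mouse 8 had 100 counts, and colonic libraries of the 2 h mice, which carry no knockout label, had 0 to 41 counts. The groups are named here by their labels. Markers of enteric glia (9 genes) were present in every group, with summed levels of 194 to 4196 CPM (counts scaled to a library size of 1000000). Markers of other cells could exceed them. In the 2 h colon, smooth muscle sums (8 genes) were 19714 to 73465 CPM under PBS and 19884.5 to 60427 CPM under LPS. Glial sums there were 928 to 2312 and 1282 to 1937 CPM. The colonic wild-type LPS libraries of mice 3 and 8 stood apart. Their glial sums were 434 and 358 CPM against 883 to 1510.2 CPM in the other 3, and their epithelial sums (8 genes) were 7231 and 12363 CPM against 6.19 to 14.3 CPM. Results for that group are therefore also given without these mice. The knockout colonic PBS library of mouse 20 stood apart in the same way, with an epithelial sum of 9185 CPM against 9.45 to 559.5 CPM and a glial sum of 604 CPM against 1326 to 3629 CPM in the other 4. Mitochondrial transcripts took a median of 15.4% of counts in libraries from mice with numbers up to 10 and of 4.57% in the others, and no wild-type PBS colon library is from the former.

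Promoter windows of 27 of the 32 members were found in RefSeq (GRCm38.p6), each running from 250 bases before to 50 bases after the start site. They were searched on both strands for 3 motifs of inflammatory factors: the STAT motif TTCNNNGAA, the AP-1 motif TGANTCA and the kappa B motif of NF-kappa B. A gene with several start sites has a window for each, and was counted once if any window held the motif. The STAT motif was found for 6 of 27 members (22.2%), against 9.55% of 27025 genes. The AP-1 motif was found for 4 (14.8%, against 8.97%) and the kappa B motif for 5 (18.5%, against 9.55%). A match is a description of the letters and not a binding site. The windows of the members that rose under LPS and hold a match are shown in part, as 210 bases that end 10 bases into the transcript, with the motif letters in capitals. Gfap (chr11:102897191-102897400, minus strand) has a STAT match across its start site. Cp (chr3:19956854-19957063, plus strand) has an AP-1 match in this window and none in its other one. Sphk1 (chr11:116531711-116531920, plus strand) has an AP-1 match followed after a pair of bases by a STAT match. Of its 5 windows 2, which overlap, hold this pair, and the others hold neither motif. Psmb8 (chr17:34197995-34198204, plus strand) has a STAT match. Ptx3 (chr3:66219687-66219896, plus strand) has overlapping kappa B matches at its start site.
Gfap: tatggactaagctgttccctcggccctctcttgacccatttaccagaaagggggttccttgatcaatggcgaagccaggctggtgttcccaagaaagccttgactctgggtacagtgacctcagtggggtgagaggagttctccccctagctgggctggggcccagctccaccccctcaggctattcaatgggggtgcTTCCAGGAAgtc
Cp: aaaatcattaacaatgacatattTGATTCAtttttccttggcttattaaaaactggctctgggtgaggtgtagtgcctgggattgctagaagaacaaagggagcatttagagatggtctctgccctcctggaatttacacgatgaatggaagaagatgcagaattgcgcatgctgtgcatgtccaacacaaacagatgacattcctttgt
Sphk1: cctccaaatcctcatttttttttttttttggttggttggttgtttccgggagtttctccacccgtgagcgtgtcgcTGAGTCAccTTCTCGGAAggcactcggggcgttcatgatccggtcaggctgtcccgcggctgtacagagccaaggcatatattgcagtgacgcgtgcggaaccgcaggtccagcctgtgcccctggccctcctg
Psmb8: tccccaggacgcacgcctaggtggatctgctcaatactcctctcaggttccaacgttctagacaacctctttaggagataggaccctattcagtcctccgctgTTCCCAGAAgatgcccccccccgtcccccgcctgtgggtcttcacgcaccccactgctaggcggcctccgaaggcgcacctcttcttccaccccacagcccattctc
Ptx3: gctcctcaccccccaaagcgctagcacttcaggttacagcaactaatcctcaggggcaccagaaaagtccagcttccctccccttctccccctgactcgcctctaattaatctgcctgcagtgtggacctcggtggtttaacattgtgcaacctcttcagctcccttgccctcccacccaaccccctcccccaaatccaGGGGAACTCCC

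At 2 h, LPS was followed by a rise of 2 members in both regions of the myenteric plexus, Sphk1 and Slc10a6. Sphk1 makes the lipid signal sphingosine-1-phosphate, and Slc10a6 carries sulfated steroids into cells. Both belong to the A2 panel. In the small intestine 2 of 31 tested members were called higher and 0 lower (edgeR quasi-likelihood test, Benjamini-Hochberg adjusted p under 0.05 over all tested genes). Of all tested genes 1.1% were called there, 1.08% higher and 0.0229% lower. The colon gave the same 2 higher and 0 lower, where 0.778% of all genes were called, 0.74% higher and 0.0381% lower. Over 6 alternative fits, among them DESeq2 and a replicate block, 2 to 8 members were called in the small intestine and 2 to 3 in the colon.

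Sphk1 in the small intestine was at 7.07, 10.2, 11.3 and 19.5 CPM under PBS and at 96.1, 104, 119 and 159 CPM under LPS (log2 fold change 3.31 ± 0.38, adjusted p = 0.000103, where ± gives the SE). Colonic libraries had 12.2, 14.01, 14.9 and 18.3 CPM under PBS and 60.2, 100.2, 102 and 159 CPM under LPS (log2 fold change 2.82 ± 0.37, adjusted p = 0.00067). The groups did not overlap in either region.

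Slc10a6 (chr5:103605711-103629403) was at 22.1, 27.3, 50.8 and 95.7 CPM under PBS and at 270.2, 306, 454 and 527 CPM under LPS in the small intestine (log2 fold change 2.98 ± 0.48, adjusted p = 0.00194). The colon had 40.1, 47.1, 47.6 and 54.7 CPM under PBS and 112, 344, 393 and 511 CPM under LPS (log2 fold change 2.84 ± 0.48, adjusted p = 0.00505). No LPS library reached down to a PBS library of its region.

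**Figure D1:**
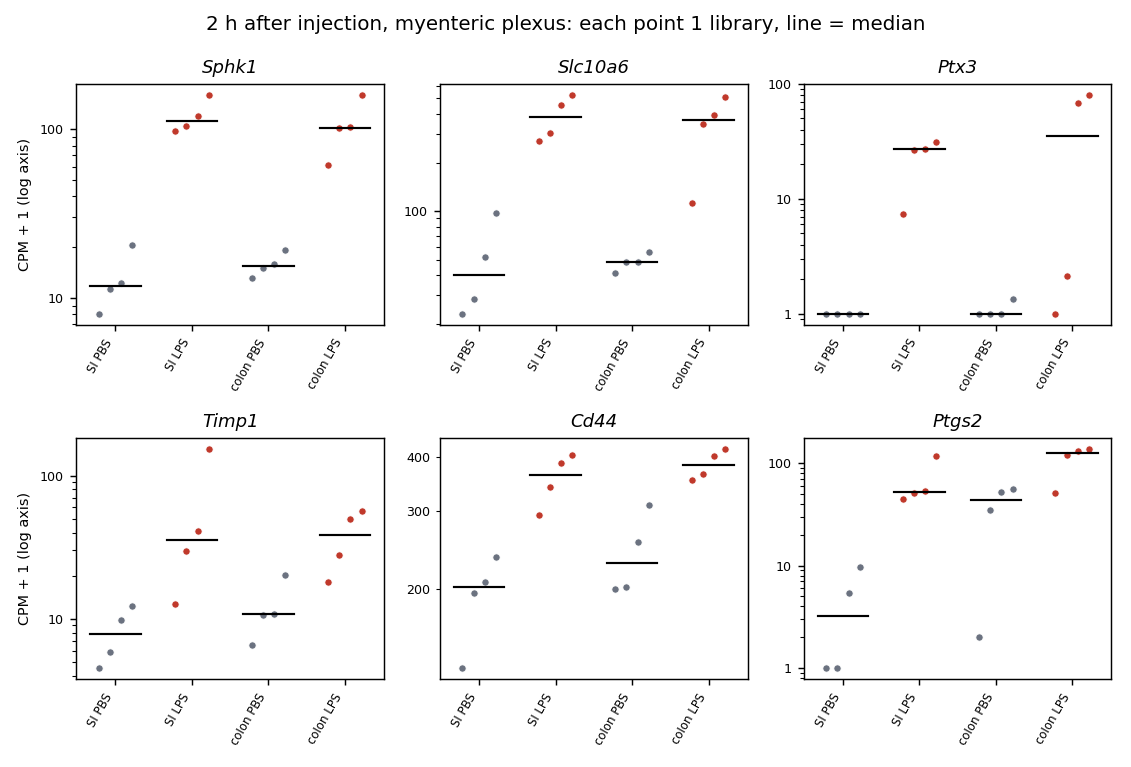
Levels of 6 members in the myenteric plexus at 2 h, in CPM plus 1 on a log axis. Each point is 1 library, the line is the group's median, grey is PBS and red is LPS. Sphk1 and Slc10a6 are higher in every LPS library than in every PBS library of the same region.

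Several secreted or induced products lay higher under LPS in the small intestine without passing the threshold. Of these, Ptx3, Ptgs2 and Cp were singled out after their values were seen. Ptx3, a secreted pattern-recognition protein, had a count of 0 in all 4 PBS libraries and was at 6.41, 25.5, 26.4 and 30.3 CPM under LPS. Against the floor of 3 counts per library its mean is at least 28.7-fold higher (adjusted p = 0.0558). Its colonic LPS libraries were split, at 0, 1.11, 67.3 and 79.7 CPM (adjusted p = 0.1).

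Timp1, an inhibitor of matrix metalloproteinases (chrX:20870166-20874735), was at 3.53, 4.88, 8.86 and 11.2 CPM under PBS and at 11.7, 28.6, 40.3 and 153 CPM under LPS in the small intestine (log2 fold change 3.02 ± 0.74, adjusted p = 0.0672). These groups did not overlap, though the lowest LPS library was close to the highest PBS library. In the colon the Timp1 change was log2 1.74 ± 0.71 (adjusted p = 0.55). Cd44, a receptor for hyaluronan, was at 131, 194, 206 and 235 CPM under PBS and at 294, 339.7, 385 and 403 CPM under LPS in the small intestine (log2 fold change 0.89 ± 0.22, adjusted p = 0.0604), and gave log2 0.67 ± 0.21 (adjusted p = 0.315) in the colon. Its groups did not overlap in either region.

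Ptgs2, the inducible cyclooxygenase of prostaglandin synthesis, was at 0, 0, 4.42 and 8.62 CPM under PBS and at 43.8, 50.3, 52.97 and 116 CPM under LPS in the small intestine (log2 fold change 4.21 ± 1.07, adjusted p = 0.0863). Colonic levels under PBS were already 1.00 to 55.4 CPM, against 50.5 to 137 CPM under LPS. Cp, the ferroxidase ceruloplasmin, was at 8.77, 15.5, 23.7 and 27.1 CPM under PBS and at 48.99, 53.1, 111 and 127 CPM under LPS in the small intestine (log2 fold change 2.17 ± 0.59, adjusted p = 0.136).

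No filament gene passed the test at 2 h. Gfap, the filament protein by which reactive astrocytes are recognised, was at 165, 235, 304 and 337 CPM under PBS and at 364, 387, 404 and 426 CPM under LPS in the small intestine (log2 fold change 0.60 ± 0.33, adjusted p = 1), without overlap. Colonic Gfap was at 162 to 599 CPM under PBS and 272 to 437 CPM under LPS (log2 fold change 0.09 ± 0.33, adjusted p = 1). Vim, the filament vimentin, was at 2498 to 4254 CPM under PBS and at 2365 to 3799.97 CPM under LPS in the small intestine. It gave log2 -0.005 ± 0.26 (adjusted p = 1) there and log2 0.039 ± 0.26 (adjusted p = 1) in the colon. Nes, the filament nestin, gave log2 0.22 ± 0.46 in the small intestine and log2 -0.03 ± 0.46 in the colon. Sox9, a transcription factor of glia, gave log2 1.52 ± 0.99 (adjusted p = 1) and log2 0.58 ± 0.98 (adjusted p = 1).

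Of the signalling members, Stat3 was at 139.8, 193, 222 and 255 CPM under PBS and at 261, 342, 396 and 601 CPM under LPS in the small intestine (log2 fold change 0.98 ± 0.31, adjusted p = 0.3), without overlap. The colonic change was log2 0.48 ± 0.31 (adjusted p = 0.895). Osmr, the receptor for the cytokine oncostatin M, gave log2 1.53 ± 0.65 (adjusted p = 0.795) in the small intestine and log2 1.497 ± 0.65 (adjusted p = 0.591) in the colon. Of the 31 tested members, 25 log2 fold changes were positive in the small intestine and 23 in colon, with medians of 0.697 and 0.448 beside -0.021 and -0.002 over all genes. An unadjusted p under 0.05 was found for 12 members in the small intestine, where 5.2% of all genes had a p as low, and for 8 in the colon, where 7.53% did.

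The difference of the LPS response between the regions was tested as an interaction, and 0 members were called by edgeR or DESeq2, as were 0% of all genes by edgeR. Cp alone had an unadjusted p under 0.05 (log2 difference -2.01 ± 0.81, adjusted p = 1, colon minus small intestine), as did 3.45% of all genes. DESeq2 called 8 members higher in the small intestine, namely Sphk1, Slc10a6, Timp1, Cd44, Cp, Steap4, Ptx3 and Ptgs2, and 2.12% of the genes to which it gave an adjusted p. No marker of glia, macrophages, neutrophils or fibroblasts was called in either region at 2 h. Neutrophil sums were at most 14.4 CPM except in the small-intestinal LPS library F1 (157 CPM), so a lack of calls says little about these cells. Colonic neuronal sums were 179 to 659 CPM under PBS and 316 to 1709 CPM under LPS. Colonic macrophage sums were 312 to 2241 and 298 to 694 CPM. Of 2 tested lymphocyte markers Jchain was called higher in the small intestine, where the sum of the 8 markers was 6.42 to 20.0 CPM under PBS and 18.7 to 918 CPM under LPS. The part of these cells in the results was not tested.

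Other genes of the panels and of the upstream pathways also moved at 2 h. Of 8 further panel genes, 4 were called higher in the small intestine and 2 in colon, and 0 lower. The chemokine Cxcl10 gave log2 6.83 ± 0.83 and log2 5.08 ± 0.77, and Cd14, the LPS co-receptor, log2 4.63 ± 0.61 and log2 3.05 ± 0.58. Of 10 tested genes of the Stat3 pathway, 2 were called higher in each region. These were the cytokine Il6 and Socs3, its feedback inhibitor, at log2 3.25 ± 0.57 in the small intestine and log2 2.75 ± 0.56 in the colon. Of 5 factors by which microglia induce the A1 state, Il1a was called higher in both regions and 0 of the other 4.

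At 24 h in wild-type mice, 10 of 32 members were called higher after LPS in the small intestine and 0 lower, where 7.17% of all genes were called, 4.18% higher and 2.99% lower. The wild-type colon had 9 members called higher and 3 lower, where 7.96% of all genes were called, 3.96% higher and 4% lower. The 9 were Timp1, Cp, Ptx3, Sphk1, H2-T23, Cd44, Slc10a6, Psmb8 and Stat3, and all were also among the 10 of the small intestine. The regions came in part from the same mice. These are bulk libraries, in which fewer cells of a type and less RNA per cell cannot be told apart.

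**Figure D2:**
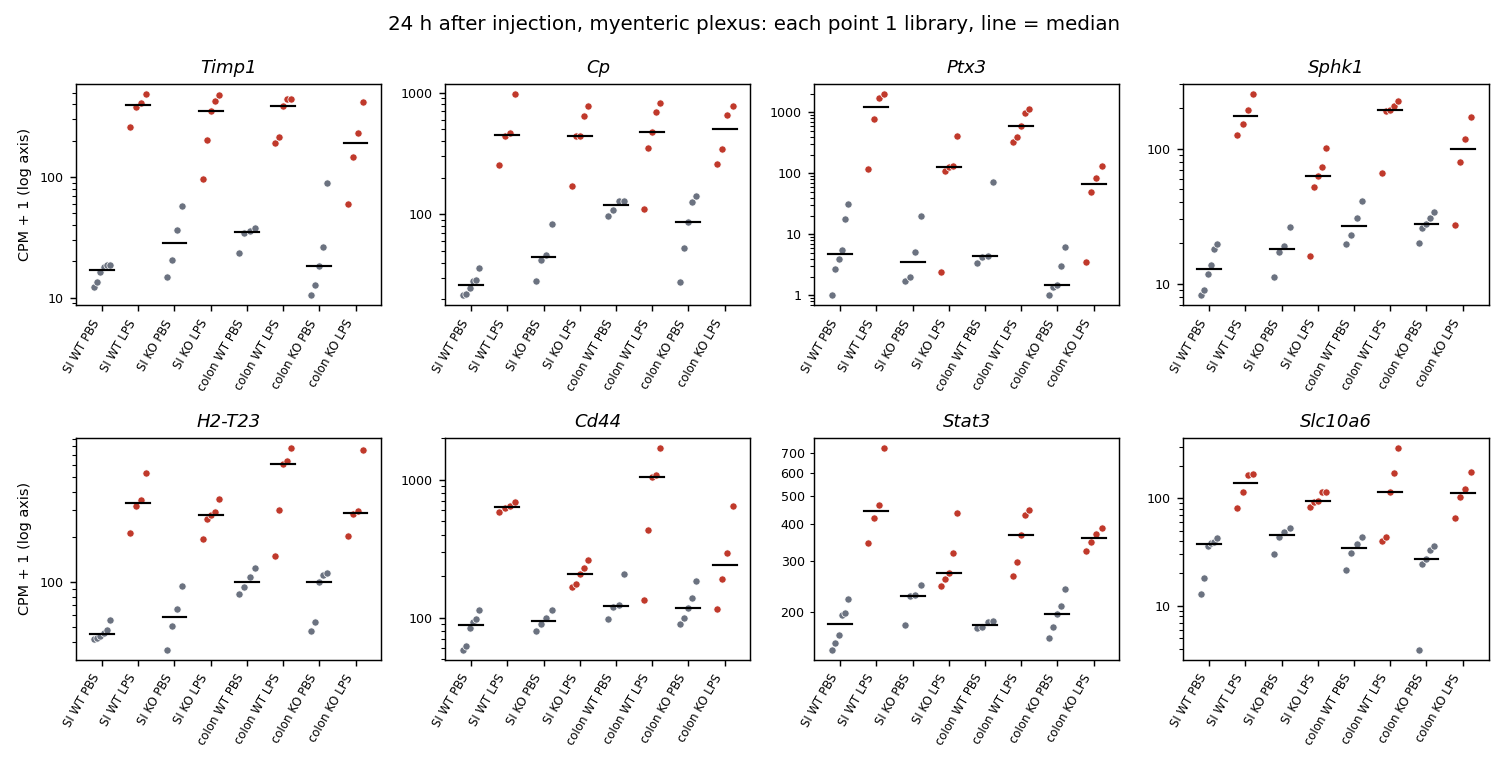
Levels of 8 members at 24 h in the 8 groups, in CPM plus 1 on a log axis. Each point is 1 library, the line is the group's median, grey is PBS and red is LPS. In the wild-type small intestine every LPS library lies above every PBS library for each of the 8 genes.

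Among the pan-reactive genes, Timp1 was at 11.3, 16.1 and 17.7 CPM (lowest, median and highest of 6) under PBS and at 259.9, 378, 406 and 489 CPM under LPS in the wild-type small intestine (log2 fold change 4.65 ± 0.54, adjusted p = 7.37e-07). Colonic levels were 22.5, 33.2, 34.8 and 36.7 CPM under PBS and 192, 213, 385, 443 and 446 CPM under LPS (log2 fold change 3.40 ± 0.59, adjusted p = 0.000543). Every LPS library was above every PBS library in both regions.

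Cp was at 20.6, 25.5 and 35.01 CPM (lowest, median and highest) under PBS and at 254, 442, 461 and 979 CPM under LPS in the small intestine (log2 fold change 4.36 ± 0.48, adjusted p = 4.5e-07). Its colonic libraries had 95.8, 108, 127 and 129 CPM under PBS and 111, 349.5, 476, 689 and 824 CPM under LPS (log2 fold change 2.09 ± 0.50, adjusted p = 0.00939). The lowest of these LPS libraries, of mouse 8, lay inside the PBS range. Cp shares 108 exon bases with a gene on the other strand.

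Cd44 (chr2:102811141-102901665) was at 57.7, 87.1 and 113 CPM (lowest, median and highest) under PBS and at 584, 625, 640.1 and 682 CPM under LPS in the small intestine (log2 fold change 2.91 ± 0.42, adjusted p = 1.82e-05). The colon had 96.02, 119, 123 and 205 CPM under PBS and 134, 430.4, 1051, 1085 and 1695 CPM under LPS (log2 fold change 2.69 ± 0.47, adjusted p = 0.000537). Its small-intestinal LPS libraries lay close together, while in the colon mouse 8 was again inside the PBS range.

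Gfap (chr11:102887336-102900912) was at 119.6, 172 and 397 CPM (lowest, median and highest) under PBS and at 384, 719, 915 and 3134 CPM under LPS in the small intestine (log2 fold change 2.58 ± 0.63, adjusted p = 0.00928). The highest PBS library lay just above the lowest LPS library. Without the library of mouse 8, the highest, the change was log2 1.648 (adjusted p = 0.133) and no longer called. Colonic Gfap was at 249, 376, 420.5 and 567 CPM under PBS and 181, 617, 673, 1398 and 1693 CPM under LPS (log2 fold change 1.18 ± 0.67, adjusted p = 0.28), and these groups overlapped.

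Vim (chr2:13573927-13582826) fell in the wild-type colon, from 1491, 1720.2, 1904 and 1949.9 CPM under PBS to 492, 569, 587, 699 and 1058 CPM under LPS, with no overlap (log2 fold change -1.38 ± 0.26, adjusted p = 0.00142). Without the 4 LPS libraries labelled wild type with Gpr37 counts in the knockout range, the Vim change was log2 -0.973 (adjusted p = 0.13) and not called. That left mice 13 and 16 under LPS in the colon. Small-intestinal Vim was at 1197, 1369 and 2233 CPM (lowest, median and highest) under PBS and at 731, 801, 1173 and 1419 CPM under LPS (log2 fold change -0.58 ± 0.26, adjusted p = 0.176). Nes (chr3:87971078-87980451) gave log2 -0.98 ± 0.71 (adjusted p = 0.415) in the colon. It was at 13.8, 34.4 and 41.98 CPM under PBS and at 4.56, 6.56, 8.21 and 14.98 CPM under LPS in the small intestine (log2 fold change -1.94 ± 0.74, adjusted p = 0.109), and its groups overlapped. Sox9 gave log2 0.70 ± 1.10 (adjusted p = 0.78) in the small intestine and log2 -0.19 ± 1.16 (adjusted p = 0.947) in the colon. Osmr gave log2 0.93 ± 0.45 (adjusted p = 0.221) and log2 0.11 ± 0.48 (adjusted p = 0.922).

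**Figure D3:**
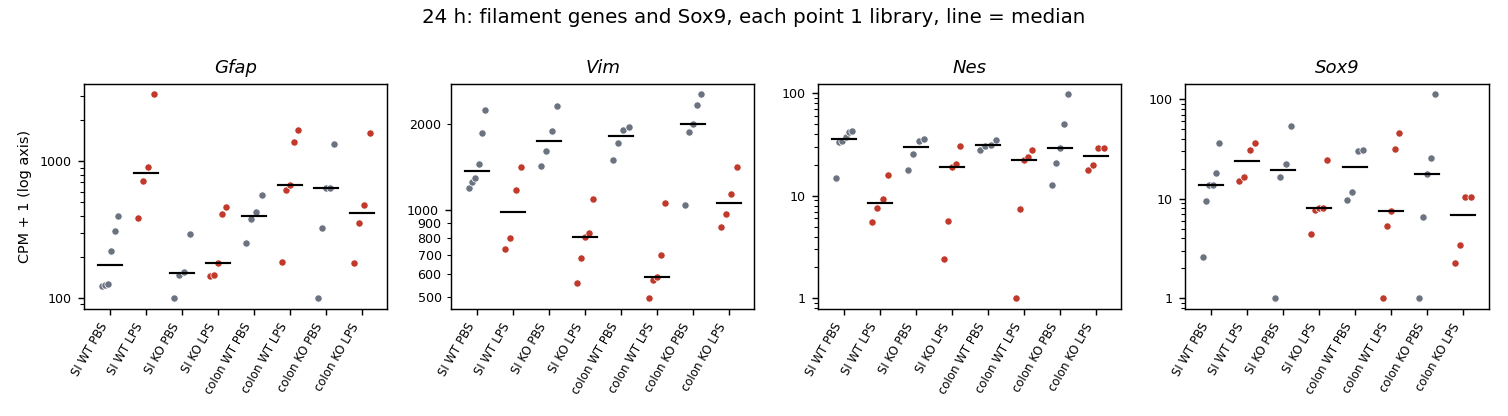
Levels of Gfap, Vim, Nes and Sox9 at 24 h in the 8 groups, in CPM plus 1 on a log axis. Each point is 1 library, the line is the group's median, grey is PBS and red is LPS. The Gfap point at 3134 CPM in the wild-type small intestine is mouse 8, and in the wild-type colon every Vim point under LPS is below every one under PBS.

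Of the 7 A1-panel genes, H2-T23 and Psmb8 rose in both regions of the wild type, and both belong to antigen processing and presentation. H2-T23 (chr17:36029773-36032855), a non-classical MHC class I gene, was at 40.8, 43.7 and 54.4 CPM (lowest, median and highest) under PBS and at 212, 319, 349.9 and 527 CPM under LPS in the small intestine (log2 fold change 2.96 ± 0.37, adjusted p = 2.51e-06). Colonic levels were 82.4, 91.3, 107 and 123 CPM under PBS and 147, 299, 607, 633 and 779 CPM under LPS (log2 fold change 2.29 ± 0.40, adjusted p = 0.000642). The groups were apart in both regions. H2-T23 has close relatives in its gene family, so its counts are uncertain.

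Psmb8, a catalytic subunit of the immunoproteasome, was named for the small intestine after its value was seen. It was at 219, 229 and 241 CPM (lowest, median and highest) under PBS and at 449.7, 969, 1016 and 1065 CPM under LPS there (log2 fold change 1.93 ± 0.34, adjusted p = 0.000378). The colon had 279, 298, 356 and 395 CPM under PBS and 759.8, 808, 827, 1005 and 1361 CPM under LPS (log2 fold change 1.52 ± 0.37, adjusted p = 0.0112). Neither region showed an overlap. Without mice 3 and 8 the colonic change was log2 1.284 (adjusted p = 0.0756). Its exons share 498 bases with a gene on the other strand, and whether the counting used strand is not given in the sources used here.

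None of the other 5 A1-panel genes was called higher. Srgn, a proteoglycan of secretory granules, was at 28.8, 89.2 and 156 CPM (lowest, median and highest) under PBS and at 194, 216, 286 and 382 CPM under LPS in the small intestine, without overlap (log2 fold change 1.56 ± 0.66, adjusted p = 0.151), and was named after its values were seen. Fbln5, a protein of elastic fibres, fell in the wild-type colon from 168, 173, 202 and 212 CPM to 15.8, 28.4, 76.4, 108 and 119 CPM (log2 fold change -1.44 ± 0.39, adjusted p = 0.0196). Emp1, a membrane protein of the A2 panel, fell there from 168, 196, 201 and 205 CPM to 44.8, 58.7, 83.8, 102 and 102 CPM (log2 fold change -1.30 ± 0.41, adjusted p = 0.0471). Both were named after their values were seen, neither overlapped, and neither was called without mice 3 and 8. Serping1, the inhibitor of the first complement protease, gave log2 0.78 ± 0.45 (adjusted p = 0.318) in the small intestine and log2 -0.17 ± 0.47 (adjusted p = 0.862) in the colon.

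Of the 12 A2-panel genes, Ptx3, Sphk1, Slc10a6 and Stat3 rose in both regions of the wild type. Ptx3 (chr3:66219910-66225805) was at 0, 3.81 and 30.2 CPM (lowest, median and highest) under PBS and at 118, 768, 1689 and 2023 CPM under LPS in the small intestine (log2 fold change 6.93 ± 1.40, adjusted p = 0.00148). Colonic Ptx3 was at 2.38, 3.301, 3.47 and 71.5 CPM under PBS and 323, 393, 598, 981 and 1155 CPM under LPS (log2 fold change 5.10 ± 1.52, adjusted p = 0.0347). No PBS library reached the LPS range in either region. The colonic change ranged from 4.73 to 7.85 over fits that each left out 1 library, and was not called without the PBS library of mouse 19, 22 or 24.

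Sphk1 was at 7.21, 11.8 and 18.6 CPM (lowest, median and highest) under PBS and at 126, 152, 193 and 255 CPM under LPS in the small intestine (log2 fold change 3.86 ± 0.43, adjusted p = 4.5e-07). The colon had 18.8, 22.1, 29.5 and 39.98 CPM under PBS and 65.02, 191, 192, 207 and 227 CPM under LPS (log2 fold change 2.68 ± 0.47, adjusted p = 0.000578). The groups were apart, and the low colonic LPS library was that of mouse 8. Sphk1 shares 192 exon bases with a gene on the other strand.

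Slc10a6 was at 11.9, 36.2 and 41.9 CPM (lowest, median and highest) under PBS and at 80.1, 113, 164 and 165 CPM under LPS in the small intestine (log2 fold change 2.11 ± 0.47, adjusted p = 0.00371). Its colonic libraries had 20.6, 30.04, 36.5 and 42.4 CPM under PBS and 39.1, 42.4, 112, 170.4 and 291 CPM under LPS (log2 fold change 2.02 ± 0.52, adjusted p = 0.014), and of the LPS libraries that of mouse 3 lay inside the PBS range and that of mouse 8 at its upper end. The colonic call was lost without the LPS library of mouse 5 or the PBS library of mouse 19.

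Stat3 (chr11:100885098-100939540), a transcription factor downstream of Il6-type cytokines, was at 147, 180.3 and 221 CPM (lowest, median and highest) under PBS and at 343, 418, 465 and 729 CPM under LPS in the small intestine (log2 fold change 1.44 ± 0.19, adjusted p = 8.12e-06). Colonic levels were 175, 176, 184 and 185 CPM under PBS and 264, 295, 367, 428 and 448 CPM under LPS (log2 fold change 1.00 ± 0.21, adjusted p = 0.00308). Its rise was without overlap in both regions, and it shares 72 exon bases with Stat5a on the other strand. The A2-panel genes other than these 4 and Emp1 were not called in the wild type in the edgeR fit of all 24 h libraries.

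Over all 32 members, 24 log2 fold changes were positive in the wild-type small intestine (median 1.252, beside -0.131 over all genes) and 18 in the colon (0.259, beside -0.027). Without mice 3 and 8, 9 members were called higher in the small intestine (all but Gfap), and 8 higher and 2 lower in the colon (3.35% and 4.84% of all genes). Without the 4 LPS libraries whose Gpr37 counts go against their label, 10 were called higher in the small intestine, and 7 higher and 1 lower (S100a10) in the colon, where Ptx3, Psmb8, Vim, Fbln5 and Emp1 were no longer called (6.71% and 2.4% of all genes). With only mice numbered 11 and above, 13 were called higher in the small intestine, Gfap included, and 10 higher and 2 lower in the colon (9.68% and 9.57% of all genes). In that fit mice 13 and 16 alone made up the wild-type LPS group of each region. They did so too in the small intestine without mice 3 and 8, and in the colon without the 4 libraries.

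Markers of other cells moved with these results. Summed neutrophil markers (8 genes) were at 19.2 to 849 CPM under LPS and 1.48 to 20.04 CPM under PBS in the small intestine, and at 13.4 to 2321 and 1.06 to 151 CPM in the colon. Of 7 tested, 5 were called higher in the small intestine and 2 in colon, and Ly6g and Cxcr2 were at 0 in all 6 small-intestinal PBS libraries. In the small-intestinal LPS libraries of mice 16, 3, 8 and 13, in this order, neutrophil sums were 19.2, 733, 842 and 849 CPM. Ptx3 was at 1689, 768, 118 and 2023 CPM, Timp1 at 406, 489, 378 and 259.9 CPM, and Cd44 at 640.1, 584, 625 and 682 CPM. Fibroblast markers were called lower for 3 of 8 genes in the small intestine and for 4 in colonic libraries, where their sums were 760.4 to 9606 CPM under LPS and 16579.9 to 25992 CPM under PBS. Summed macrophage markers overlapped between PBS and LPS in both regions, and of the 8 markers Cx3cr1 was called lower in the small intestine. Mesothelial sums (8 genes) were 269 to 517 CPM under LPS and 812 to 4236 CPM under PBS in the small intestine, without overlap, and 0 of the 8 log2 fold changes were positive (median -2.616). Of these 8 markers 4 had an unadjusted p under 0.05 and 1 was called lower. Glial sums were 507 to 771 CPM under LPS and 854 to 2839 CPM under PBS in the small intestine, where Fabp7 was called lower, as were Fabp7 and Entpd2 in the colon. All 8 epithelial log2 fold changes were positive in the colon (median 4.651), with 3 at an unadjusted p under 0.05 and 0 called by edgeR. Colonic lymphocyte sums under LPS were 2660 and 1406 CPM in mice 3 and 8, and 0 to 18.9 CPM in the others. Colonic smooth muscle sums were 608 to 3111.5 CPM under LPS and 874 to 7206 CPM under PBS. Mesothelial sums there were 22.7 to 2061 and 111 to 234 CPM. The part of these cells in the members' results was not tested.

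A measure within each library was added after the data were seen, Gfap or Vim as a percentage of the summed CPM of the 9 glial markers. It was compared by 2-sided exact permutation tests, with p adjusted over 12 tests. Small-intestinal Gfap was at 75.6% to 407% of the glial sum under LPS and at 12.1% to 24% under PBS, with no overlap (log2 difference 3.31, exact p = 0.00952, adjusted p = 0.0381). Of this difference 2.305 was from Gfap's own mean log2 CPM and the rest from the glial sum, whose mean log2 was lower under LPS (difference -1.009). Colonic ranges were 12% to 472% and 17.7% to 31.9% (exact permutation test, adjusted p = 0.19). For Vim the differences were 0.41 and -0.36 (exact permutation tests, adjusted p = 0.214 and 0.686).

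The further panel genes also rose at 24 h. All 8 were called higher in the wild-type small intestine and 6 in the colon, and 0 lower. Lcn2, a secreted iron-scavenging protein, gave log2 9.00 ± 1.12 and log2 3.88 ± 1.05, and Serpina3n, a protease inhibitor often used to mark reactive astrocytes, log2 5.09 ± 0.55 and log2 3.61 ± 0.60. Of 12 genes of the Stat3 pathway 0 were called by edgeR in any of the 4 LPS comparisons at 24 h, with 2 to 3 at an unadjusted p under 0.05. The 5 microglial inducers gave 0 calls as well, with 0 to 3 at an unadjusted p under 0.05.

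In the knockout, 3 members were called higher after LPS in the small intestine and 1 lower, where 0.718% of all genes were called, 0.53% higher and 0.188% lower. The knockout colon had 6 members called higher and 0 lower, where 0.718% of all genes were called, 0.637% higher and 0.0805% lower. Timp1, Cp and H2-T23 were called higher in both regions, and Sphk1, Slc10a6 and Stat3 in the colon. All of these were also called higher in the same region of the wild type. Positive log2 fold changes were found for 21 of 32 members in the small intestine (median 0.413, beside -0.054 over all genes) and for 22 in the colon (0.818, beside -0.073).

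Timp1 in the knockout small intestine was at 13.97, 19.6, 35.4 and 56.5 CPM under PBS and at 94.5, 202, 351, 429 and 479 CPM under LPS (log2 fold change 3.31 ± 0.59, adjusted p = 0.00286), without overlap. Knockout colon had 9.47, 11.7, 17.3, 25.3 and 88.1 CPM under PBS and 59.2, 146, 232 and 414 CPM under LPS (log2 fold change 2.81 ± 0.54, adjusted p = 0.00732). The lowest LPS library in both regions was that of mouse 11, and in the colon it lay below the PBS library of mouse 7. That PBS library had a macrophage sum of 3073 CPM against 133 to 641 CPM in the other 4. Its lymphocyte sum was 1685 CPM against 0.535 to 3.63 CPM. The small-intestinal library of mouse 11 had a macrophage sum of 5259.7 CPM against 260.4 to 1414 CPM in the other 4, and a glial sum of 2289 CPM against 384 to 669.8 CPM. The part of these cells in the levels of either library was not tested.

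Cp was at 27.2, 41.3, 45.5 and 81.7 CPM under PBS and at 169.8, 439, 441, 637 and 772 CPM under LPS in the knockout small intestine (log2 fold change 3.33 ± 0.53, adjusted p = 0.00134). Colonic levels were 26.6, 52.3, 84.98, 126 and 139.8 CPM under PBS and 256, 343, 651 and 768 CPM under LPS (log2 fold change 2.55 ± 0.48, adjusted p = 0.00705). H2-T23 was at 34.5, 50.3, 65.3 and 92.5 CPM under PBS and at 191, 261, 276, 291 and 357 CPM under LPS in the small intestine (log2 fold change 2.18 ± 0.40, adjusted p = 0.00386), and gave log2 2.17 ± 0.38 (adjusted p = 0.00357) in the colon. For both genes the LPS and PBS libraries were apart in both regions.

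Sphk1 was at 10.2, 16.2, 18.1 and 25.4 CPM under PBS and at 15.1, 50.8, 61.5, 71.9 and 99.9 CPM under LPS in the knockout small intestine (log2 fold change 1.77 ± 0.45, adjusted p = 0.0538). Colonic levels were 18.9, 25.0, 26.7, 29.8 and 32.97 CPM under PBS and 26.02, 78.2, 118 and 169.7 CPM under LPS (log2 fold change 1.88 ± 0.43, adjusted p = 0.0253). The library of mouse 11 lay inside the PBS range in both regions. Slc10a6 gave log2 2.26 ± 0.50 (adjusted p = 0.0191) in the colon. Stat3 gave log2 0.86 ± 0.20 (adjusted p = 0.0292) there and log2 0.48 ± 0.20 (adjusted p = 0.339) in the small intestine. Osmr gave log2 0.27 ± 0.48 (adjusted p = 0.92) in the small intestine and log2 1.60 ± 0.48 (adjusted p = 0.121) in the colon.

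Ptx3 was at 0.747, 0.990, 4.10 and 19.1 CPM under PBS and at 1.38, 108, 127, 132 and 406 CPM under LPS in the knockout small intestine (log2 fold change 4.63 ± 1.49, adjusted p = 0.147). The knockout colon had 0 to 5.18 CPM under PBS and 2.497, 48.1, 82.5 and 131 CPM under LPS (log2 fold change 5.51 ± 1.48, adjusted p = 0.0792). Mouse 11 was the low LPS library in both. Cd44 gave log2 1.13 ± 0.44 (adjusted p = 0.268) in the small intestine and log2 1.30 ± 0.43 (adjusted p = 0.176) in the colon.

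Vim fell in the knockout small intestine, from 1422, 1604, 1881 and 2307 CPM under PBS to 559, 679, 806, 834 and 1091 CPM under LPS, without overlap (log2 fold change -1.18 ± 0.26, adjusted p = 0.0197). It was called in 4 of 9 fits that each left out 1 library. Glial markers lay lower there too, with 0 of 9 log2 fold changes positive (median -0.901), 4 at an unadjusted p under 0.05 and 0 called by edgeR. Glial sums were 384 to 2289 CPM (median 619) under LPS and 905 to 4196 CPM (median 1412) under PBS. Of 8 fibroblast markers 0 were positive (median -1.389) and of 8 macrophage markers all were (median 1.587), each with 4 at an unadjusted p under 0.05 and 0 called by edgeR. All 8 neuronal markers were positive too (median 1.404), with 5 at an unadjusted p under 0.05 and 0 called by edgeR. Their part in the Vim result was not tested. In the colon the Vim change was log2 -0.83 ± 0.27 (adjusted p = 0.166). Gfap gave log2 0.63 ± 0.66 (adjusted p = 0.819) in the small intestine and log2 0.12 ± 0.65 (adjusted p = 0.972) in the colon. Nes gave log2 -0.91 ± 0.71 (adjusted p = 0.715) and log2 -0.83 ± 0.72 (adjusted p = 0.694), and Sox9 log2 -1.24 ± 1.16 (adjusted p = 0.79) and log2 -2.49 ± 1.26 (adjusted p = 0.421). As a percentage of the glial sum, small-intestinal Gfap was at 6.26% to 106% under LPS and 6.96% to 12.9% under PBS (exact permutation test, adjusted p = 0.19).

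Single libraries decided several knockout calls. Without mouse 2 the colonic count was 1 (Cp, with 0.184% of all genes called). Without the colonic PBS library of mouse 20 it was 4 (Timp1, Cp, H2-T23 and Slc10a6, with 0.567% of all genes called). Without both libraries of mouse 11 it was 7 in the colon, with Ptx3 added, and 6 in the small intestine, with Ptx3 and Sphk1 added (1.37% and 2.42% of all genes). A fit of the compared groups alone called 2 members in the small intestine (Cp and H2-T23) and 0 in the colon, with 0.35% and 0.0544% of all genes. DESeq2 called 7 and 10, with 3.55% and 3.19% of all genes. Summed neutrophil markers were 10.2 to 1838 CPM under LPS and 0.661 to 4.36 CPM under PBS in the small intestine, and 3.71 to 502 and 0.178 to 59.9 CPM in the colon. Of 9 glial markers 0 were positive in the colon as well (median -0.862), with 3 at an unadjusted p under 0.05 and 0 called by edgeR. Their part was not tested.

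**Figure D4:**
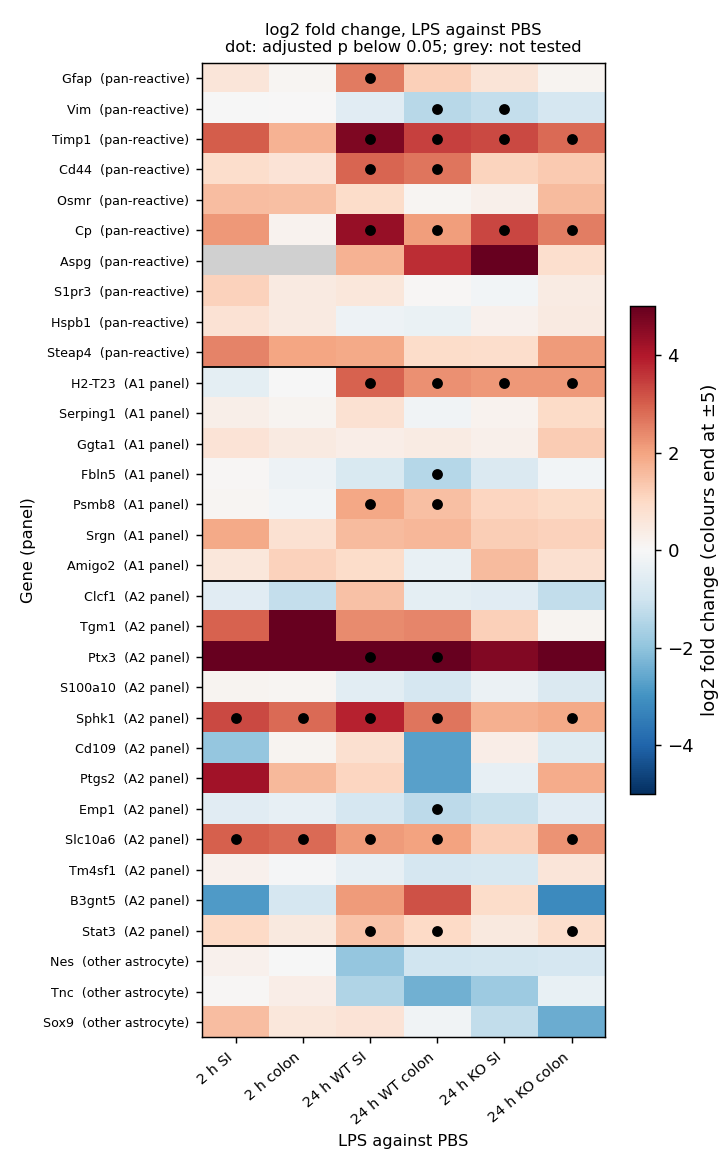
Log2 fold change of LPS over PBS for the 32 members in the 6 LPS comparisons. Colour runs from blue (lower) to red (higher) and ends at 5 in either direction, dots mark called values and grey marks a gene not tested. Timp1, Cp and H2-T23 are called in all 4 comparisons at 24 h, and Sphk1 and Slc10a6 in 5 of the 6.

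A call in 1 genotype and not in the other does not show a difference, so the difference itself was tested. The interaction of treatment and genotype gave 0 called members in either region by edgeR, as were 0% of all genes. In the small intestine 4 members had an unadjusted p under 0.05, where 3.88% of all genes did. These were Sphk1 (log2 -2.09 ± 0.59, knockout response minus wild-type response), Stat3 (log2 -0.96 ± 0.28), Cd44 (log2 -1.79 ± 0.59) and Gfap (log2 -1.95 ± 0.90), each with an adjusted p of 1. In the colon 5 did (Fbln5, Cd44, B3gnt5, Osmr and Tm4sf1), where 13.5% of all genes did, and Cd44 gave log2 -1.39 ± 0.61 (adjusted p = 0.309). B3gnt5 was at 64.1 CPM in the knockout PBS library of mouse 20 and at 0 to 0.267 CPM in the other 4, and at 29.01 and 90.6 CPM in the LPS libraries of mice 3 and 8 against 0 to 6.55 CPM. These 3 are the libraries that stood apart in epithelial markers. DESeq2 called 1 member, Aspg, in the small intestine and 0 in colon, with 0.397% and 2.29% of all genes. A fit of the small-intestinal groups alone called Cd44 at log2 -1.808 (adjusted p = 0.0246), with 0.0209% of all genes. Without mouse 8 the small-intestinal Gfap difference was log2 -1.021 (adjusted p = 1).

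Both tests take the genotype from the labels. Gpr37 counts lay in the knockout range in 1 of 4 small-intestinal and 3 of 5 colonic LPS libraries labelled wild type. Without those 4, 0 members were called for the interaction in either region. Knockout and wild-type LPS libraries were also compared directly, with 0 members called in either region by edgeR, where 0.0134% and 0.429% of all genes were called. Cd44 in the small intestine was at 166, 174, 204, 226 and 263 CPM in the knockout and at 584, 625, 640.1 and 682 CPM in the wild type, with no overlap (log2 difference -1.61 ± 0.43, adjusted p = 0.276). Sphk1 was at 15.1 to 99.9 CPM in the knockout and 126 to 255 CPM in the wild type, also apart (log2 difference -1.60 ± 0.43, adjusted p = 0.279). Gfap was at 143, 145, 179, 409 and 459.8 CPM in the knockout, against 384 to 3134 CPM (log2 difference -2.27 ± 0.67, adjusted p = 0.349). The highest of these was mouse 8, without which the difference was log2 -1.347 (adjusted p = 0.706). Colonic Cd44 gave log2 -1.51 ± 0.44 (adjusted p = 0.105), and was called lower in the knockout without mouse 8, without mice 3 and 8, without knockout mouse 2, or with only mice numbered 11 and above. An unadjusted p under 0.05 was found for 6 members in the small intestine, where 7.63% of all genes had a p as low, and for 7 in the colon, where 16.4% did. DESeq2, with mouse 8 included, called Gfap, Cd44 and Sphk1 lower in the knockout in the small intestine and Cd44 in the colon, with 1.22% and 5.03% of all genes. Without the 4 LPS libraries labelled wild type with Gpr37 counts in the knockout range, edgeR called 0 members in either region. No marker of other cells was called by edgeR in this comparison. In the colon all 8 fibroblast markers were higher in the knockout (median log2 difference 1.627, 2 at an unadjusted p under 0.05), as were all 8 of smooth muscle (1.377, 3 at such a p) and all 8 endothelial ones (1.35, 1 at such a p). All 8 epithelial markers were lower there (median -4.328, 1 at such a p), as were 6 of 7 lymphocyte markers tested (-1.464, 3 at such a p), and 3 of 8 mesothelial markers had such a p. In the small intestine all 8 macrophage markers (1.032, 1 at such a p) and all 8 mesothelial ones (1.202, 0 at such a p) were higher, and 7 of 9 glial ones (0.886, 1 at such a p). Their part in the genotype differences was not tested.

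Under PBS the genotypes gave 0 called members in either region by edgeR, as were 0% of all genes. An unadjusted p under 0.05 was found for 3 members in the small intestine (1.72% of all genes) and 1 in the colon (4.22%). DESeq2 called Aspg, an asparaginase, lower in the knockout in the small intestine, where it was at 0 in all 4 knockout libraries and in 4 of 6 of the wild type, and at 0.989 and 2.33 CPM in the others. It called 0.39% of all genes there.

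In untreated mice members were called in both directions between the plexuses. In the colon 2 of 31 tested members were called higher in SMP than in MP and 9 lower, where 21.8% of all genes were called, 10.7% higher and 11.1% lower. The small intestine had 7 called higher and 12 lower, where 43.5% of all genes were called, 22.3% higher and 21.2% lower. Gfap, Vim, Nes, S1pr3, Steap4, Hspb1 and Tnc were lower in both regions (7 of 9 and 7 of 12), and Srgn and Cd44 higher in both (2 of 2 and 2 of 7). Of the 31 members, the share called higher was below that of all genes in the colon and close to it in the small intestine. An unadjusted p under 0.05 was found for 16 members in the colon (35.0% of all genes) and 23 in the small intestine (50.6%).

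**Figure D5:**
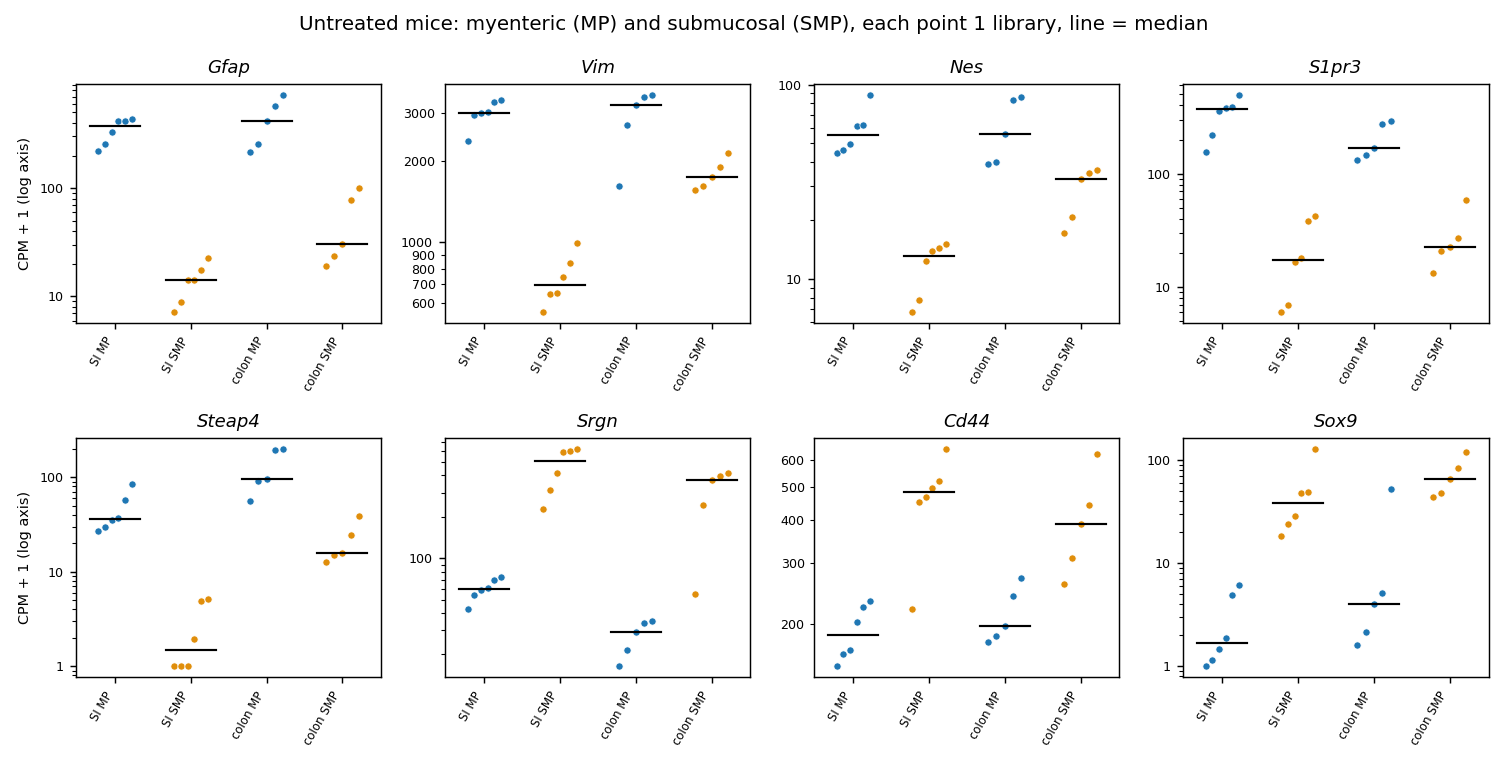
Levels of 8 members in untreated mice, in CPM plus 1 on a log axis, for small-intestinal and colonic MP and SMP. Each point is 1 library and the line is the group's median. Gfap, S1pr3 and Steap4 are lower in every SMP library than in every MP library of the same region, and Srgn is higher.

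Gfap was at 213, 255, 419.8, 575 and 730.3 CPM in colonic MP and at 18.1, 22.9, 29.7, 77.5 and 99.7 CPM in colonic SMP (log2 fold change -3.14 ± 0.47, adjusted p = 0.000195). Small-intestinal levels were 221, 371 and 433 CPM (lowest, median and highest) in MP and 6.195, 13.1 and 21.6 CPM in SMP (log2 fold change -4.71 ± 0.46, adjusted p = 3.48e-07). The plexuses were apart in both regions. Vim gave log2 -0.69 ± 0.21 (adjusted p = 0.0245) in the colon, where it overlapped, and log2 -2.02 ± 0.20 (adjusted p = 3.54e-07) in the small intestine. Nes gave log2 -1.11 ± 0.31 (adjusted p = 0.0144) and log2 -2.41 ± 0.30 (adjusted p = 3.24e-06), without overlap.

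S1pr3, a receptor for sphingosine-1-phosphate, was at 131, 145, 168, 275 and 289 CPM in colonic MP and at 12.2, 19.7, 21.4, 26.1 and 57.7 CPM in colonic SMP (log2 fold change -2.87 ± 0.52, adjusted p = 0.000843). Small-intestinal levels were 155, 367 and 498 CPM (lowest, median and highest) in MP and 5.03, 16.3 and 41.2 CPM in SMP (log2 fold change -4.02 ± 0.50, adjusted p = 3.67e-06). Steap4, a metalloreductase, was at 54.7 to 199 CPM in colonic MP and 11.7 to 37.6 CPM in SMP (log2 fold change -2.63 ± 0.68, adjusted p = 0.00894), and at 25.7 to 84.5 and 0 to 4.203 CPM in the small intestine (log2 fold change -4.71 ± 0.71, adjusted p = 2.52e-05). Hspb1, a small heat-shock protein, gave log2 -2.31 ± 0.55 (adjusted p = 0.0052) and log2 -2.84 ± 0.52 (adjusted p = 0.000182). For these 3 genes the plexuses did not overlap. Cp gave log2 -1.94 ± 0.50 (adjusted p = 0.00918) in the colon, with overlap.

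On the higher side, Srgn was at 15.4, 20.4, 28.2, 32.6 and 33.7 CPM in colonic MP and at 53.5, 241, 367, 395 and 413 CPM in colonic SMP (log2 fold change 3.49 ± 0.42, adjusted p = 5.7e-05). Small-intestinal levels were 41.7, 58.6 and 71.9 CPM (lowest, median and highest) in MP and 228, 505 and 624 CPM in SMP (log2 fold change 2.98 ± 0.37, adjusted p = 3.6e-06), again apart. Cd44 gave log2 0.92 ± 0.26 (adjusted p = 0.0133) and log2 1.30 ± 0.24 (adjusted p = 0.000163), and overlapped in both regions. Sox9 in the small intestine was at 0, 0.672 and 5.09 CPM in MP and 17.5, 37.5 and 129 CPM in SMP (log2 fold change 4.77 ± 1.00, adjusted p = 0.000632). B3gnt5, a glycosyltransferase of glycolipids, was at 0 to 2.16 and 8.405 to 34.9 CPM there (log2 fold change 5.40 ± 1.04, adjusted p = 0.000297). Aspg had a count of 0 in all 6 small-intestinal MP libraries, and its mean in SMP was at least 3.74-fold higher against the floor of 3 counts per library.

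Markers of other cells differed widely between the plexuses. Summed lymphocyte markers had medians of 23517 CPM in colonic SMP and 31151 CPM in small-intestinal SMP, against 32.2 and 14.6 CPM in MP, and all 8 were called higher in both regions. Most of these sums was Jchain, the joining chain of polymeric antibodies, at medians of 23300 and 30054 CPM in SMP, while the other 7 markers summed to medians of 298 and 1012 CPM in SMP and 0.525 and 2.06 CPM in MP. Macrophage sums had medians of 5520.01 and 9741 CPM in SMP against 306 and 909.8 CPM in MP, with 7 and 8 of 8 markers called higher. Epithelial sums were 2159 to 8470.4 CPM in colonic SMP and 5.59 to 2876 CPM in MP, with 3 of 8 markers called higher, and 1766 to 9438 and 16.9 to 322 CPM in the small intestine, with all 8 called higher. The MP library with the highest epithelial sum, colonic F3, had 51.5 CPM of Sox9 and 36.9 CPM of B3gnt5, against 0.604 to 4.16 and 0 to 8.05 CPM in the other 4. Called lower in SMP of colon and small intestine were 7 and 8 of 8 smooth muscle markers, 6 and 8 of 8 neuronal, 7 and 7 of 8 mesothelial and 1 and 7 of 8 endothelial markers. Glial sums had medians of 476 and 424 CPM in SMP against 1823 and 2659.8 CPM in MP. The colonic SMP library labelled M3 stood apart, with 729 CPM of lymphocyte markers (727 of it Jchain) and 191 CPM of macrophage markers, and was also that with 53.5 CPM of Srgn. Without it 14 members were called in the colon, 4 higher and 10 lower, and the share of all genes called in that fit is not given here. The part of these cells in the members' results was not tested.

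Gfap as a percentage of the summed glial markers was lower in SMP too, at 5.49% to 7.3% against 15.1% to 33.4% in the colon and at 1.46% to 5.5% against 6.12% to 21.8% in the small intestine. Neither pair of ranges overlapped (2-sided exact permutation tests, log2 differences -1.911 and -2.002, adjusted p = 0.0381 and 0.026). Vim as a percentage of the same sum was at 117% to 382% in SMP and 90.4% to 145% in MP of the small intestine, and the ranges overlapped (log2 difference 0.76, exact permutation test, adjusted p = 0.0909). In the colon the Vim difference was 0.77 (exact permutation test, adjusted p = 0.204).

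Between the regions, 5 of 31 members were called higher in colonic than in small-intestinal MP and 0 lower, where 3.19% of all genes were called, 1.66% higher and 1.53% lower. Serping1 was at 605, 1062, 1183, 1647 and 1847 CPM in the colon and at 304, 409 and 511 CPM (lowest, median and highest) in the small intestine, with no overlap (log2 fold change 1.64 ± 0.34, adjusted p = 0.0119). Tnc, the matrix protein tenascin C, gave log2 2.03 ± 0.47 (adjusted p = 0.0214), and Cp log2 1.81 ± 0.47 (adjusted p = 0.0383). Sphk1 gave log2 1.46 ± 0.37 (adjusted p = 0.0338), and B3gnt5 log2 4.41 ± 1.03 (adjusted p = 0.0219). With the replicate block, Serping1 and Sphk1 alone were called (1.75% of all genes). A fit of the MP groups alone called Serping1 and Tnc higher and Srgn lower (2.51%), and DESeq2 called 8 members higher and 1 lower (7.02%). Serping1 was called in each of 11 fits that left out 1 library, and B3gnt5 and Tnc in 9, Cp in 4 and Sphk1 in 3. Without the small-intestinal MP library labelled F1, Serping1 alone was called, and B3gnt5 was also not called without colonic F3. Of 8 fibroblast markers 4 were called higher in colonic MP and 8 had an unadjusted p under 0.05, with sums of 4511 to 17413 CPM against 2192 to 4222 CPM, without overlap. Of 8 markers each, 3 of smooth muscle were called higher in colonic MP, and 6 of neurons and 1 of macrophages lower. Of 9 glial markers 0 were positive (median -0.522) and 1 was called lower, and 6 of 8 epithelial markers had a positive log2 fold change, 6 an unadjusted p under 0.05 and 0 a call by edgeR. Their part in the members' results was not tested.

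In SMP, 8 of 31 members were called higher in the colon and 0 lower, where 5.18% of all genes were called, 3.82% higher and 1.36% lower. Steap4 gave log2 3.59 ± 0.70 (adjusted p = 0.00381), and Cd109, a membrane-anchored protein, log2 4.43 ± 1.07 (adjusted p = 0.0169). Emp1 gave log2 2.21 ± 0.29 (adjusted p = 0.00014), and Timp1 log2 2.12 ± 0.39 (adjusted p = 0.0022). Tm4sf1 gave log2 2.16 ± 0.47 (adjusted p = 0.00874). The filament genes Gfap (log2 1.92 ± 0.43), Vim (log2 1.28 ± 0.20) and Nes (log2 1.35 ± 0.30) were among the 8. Without the colonic library labelled M3, Gfap at log2 1.498 (adjusted p = 0.0534) and Cd109 at log2 4.085 (adjusted p = 0.0522) were no longer called. All 8 endothelial markers had a positive log2 fold change and an unadjusted p under 0.05, and 3 were called higher, with sums of 483 to 2165 CPM in colonic and 33.8 to 939 CPM in small-intestinal SMP. Of 8 fibroblast markers, all with a positive log2 fold change, 2 were called higher, with sums of 5145 to 10336 and 1629 to 7440.0 CPM. Of 9 glial markers 8 were positive (median 0.707), with 3 at an unadjusted p under 0.05 and 1 called higher. Of 8 smooth muscle markers all were positive, with 4 at such a p and 0 called by edgeR. Lying lower in colonic SMP, 0 of 8 macrophage markers were positive (median -1.332) and 0 of 8 lymphocyte markers (median -1.449), each with 3 at such a p and 1 called lower. Of 8 neuronal markers 3 were positive, with 4 at such a p and 1 called lower. Their part was not tested. Ptx3 was not tested in untreated mice, with 0 counts in 17 of 22 libraries and at most 2.61 CPM.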

How the data were processed

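RNA of enteric glial cells was measured in 75 libraries of 16 groups, in 3 experiments held in 2 tables of counts per gene. Per the labels' protocols, libraries were made with the Smart-seq2 method. The authors deposited raw counts, and per the submitters' processing notes the tools were Trim Galore 0.4.4, STAR 2.5.3 and DESeq2 with build GRCm38. The counting tool, its annotation and its use of strand are not given in the sources used here. Each experiment was fitted in 1 edgeR 4.0.16 quasi-likelihood model (R 4.3.3, limma 3.58.1) with filterByExpr and TMM scaling. This left 14090 genes in 22 untreated, 13107 in 16 at 2 h and 14903 in 37 at 24 h. Adjusted p-values (Benjamini-Hochberg) run over all tested genes, and a gene is called below 0.05. CPM values use TMM-scaled library sizes. Total counts per library were 2547296 to 9002546, 1990744 to 7883251 and 2882539 to 33283346, so 3 counts are worth at most 1.46 CPM, which covers counting error only.

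The members and all gene lists were chosen with earlier results of these data known. Named were up to 8 called members by size in each LPS comparison, always Gfap, Vim, Nes, Sox9, Stat3, Osmr, Timp1 and Cd44, up to 6 in each untreated comparison, and up to 4 called genes of each other list. Marker lists were kept for glia (1 glial marker is not reported here, and the glial sums leave it out), macrophages, neutrophils, lymphocytes, smooth muscle, fibroblasts, mesothelium, epithelium, neurons and endothelium. Of 8 smooth muscle markers 0 were called in the LPS comparisons except Lmod1, lower in both wild-type regions at 24 h. Of 8 mesothelial markers Gpm6a was called lower in wild-type small intestine, and of the epithelial, neuronal and endothelial markers 0 were called by edgeR in any LPS comparison, with 0 to 5 of a list at an unadjusted p under 0.05. Models were tested on simulated data with 50 genes changed at each size. Of 2-fold changes 2% were called the right way in the small intestine at 2 h and in either genotype at 24 h. Of 4-fold changes 28% were at 2 h, and 38% (wild type) and 46% (knockout) at 24 h. Between the untreated small-intestinal plexuses 24% and 64% were. Many changes of such size would thus be missed. Comparison of 143 pairs of libraries within groups found 0 identical. Alternatives were other scaling, no filter, DESeq2 1.42.0, covariates, only the compared groups, and leaving out libraries or mice. Exact tests and figures used Python 3.11.15, scipy 1.17.1, numpy 2.4.6 and matplotlib 3.10.9.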

Additional observations from a re-analysis of the deposited data

Results flagged for a closer look

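In 7 of 178 sets of values screened, 1 library lay far from the rest of its group. Chance alone flags about 1 in 20 such sets. Srgn was at 53.5 CPM in the colonic SMP library labelled M3, against 241 to 413 CPM in the other 4. B3gnt5 was at 2.16 CPM in the small-intestinal MP library labelled M1, against 0 to 0.282 CPM. Vim was at 1750 CPM in the 2 h colonic LPS library labelled F1, against 2870 to 3030 CPM. Nes was at 13.8 CPM in the wild-type small-intestinal PBS library of mouse 22, against 32 to 42 CPM. Sphk1 was at 65 CPM in the colonic LPS library of mouse 8, labelled wild type but with 0 counts of Gpr37, against 191 to 227 CPM. Ptx3 was at 71.5 CPM in the wild-type colonic PBS library of mouse 14, against 2.38 to 3.47 CPM, and that library also had 151 CPM of summed neutrophil markers against 1.06 to 2.28 CPM. Slc10a6 was at 2.93 CPM in the knockout colonic PBS library of mouse 7, against 23.7 to 35.1 CPM. That library also had a macrophage sum of 3073 CPM against 133 to 641 CPM, and a lymphocyte sum of 1685 CPM against 0.535 to 3.63 CPM.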

How the results depend on the processing

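Of 802 comparisons of 98 named values with an alternative, 758 kept their direction and side of the threshold, 23 lost the call, 14 gained it and 7 turned direction. Fits that left out 1 library in turn are not among the 802, and further values turned direction in those. Chosen after seeing the data were the fits without mouse 8, without mouse 11, and without mice 3 and 8. So was the fit without the 4 LPS libraries labelled wild type with Gpr37 counts in the knockout range. With DESeq2, members called numbered 9 in colon against small intestine MP, 8 at 2 h in the small intestine, 7 and 10 in the knockout small intestine and colon, 1 for the small-intestinal interaction, 3 and 1 for knockout against wild type under LPS, and 1 under PBS in the small intestine. A fit of only the compared groups gave 3 for untreated MP, 2 and 0 in the knockout, and 1 for the small-intestinal interaction. With only mice numbered 11 and above the colonic interaction had 1 and the colonic comparison of genotypes under LPS 2. That comparison had 1 without mouse 8 and 1 without mice 3 and 8. Leaving out 1 library in turn gave 1 to 5 members in untreated MP, 1 to 7 in the knockout colon and 0 to 1 for genotype under LPS in the colon. Where these counts stand without the share of all genes called, they are not read as results about the members. The cause of these changes was not tested, though fits without libraries also hold fewer samples.

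The values that turned direction were not called. At 2 h, small-intestinal Vim was 0.006 with no filter, 0.008 with sex as a covariate and 0.002 in the compared groups alone, and -0.117 to 0.185 with a library left out. Colonic ranges with a library left out were -0.142 to 0.516 for Gfap, -0.515 to 0.223 for Nes and -0.099 to 0.217 for Vim. At 24 h they were -0.049 to 0.279 for Osmr and -0.922 to 0.135 for Sox9 in the wild-type colon, -0.202 to 0.494 for Osmr in the knockout small intestine and -0.852 to 0.662 for Gfap in the knockout colon. Sox9 in the wild-type colon was 1.134 with a covariate for mice numbered 10 and below. With only mice numbered 11 and above, the knockout colon gave -0.042 for Gfap and 0.353 for Nes.

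Replicate numbers were not used to pair samples in the main fits, and whether they mark shared animals is not known. Same-numbered pairs correlated at means of 0.021 to 0.184, against -0.032 to -0.004 for other pairs. In no comparison did every same-numbered pair correlate above 0.1 (0 to 3 pairs of a comparison did so). Samples correlated best with their own number in 2 to 4 pairs of a comparison, which was all 4 at 2 h in the colon. With the replicate block, members called numbered 11 and 23 between plexuses in colon and small intestine, 2 in untreated MP, 10 in untreated SMP, 5 and 2 at 2 h in small intestine and colon, and Vim at 2 h in the small intestine was 0.002. The share of all genes called with the block is given only for untreated MP. At 24 h no paired analysis was possible, because the groups compared share no mouse. A member at 0 in a library could lie at up to 1.46 CPM at this depth.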
